A study of Homo sapiens with 4 samples.

Results

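GDF15 and 9 genes of the transforming growth factor-β (TGF-β) system were examined in MDA-MB-231, a human cell line from triple-negative breast cancer that has long been in culture. The 10 genes are the ligands GDF15, TGFB1, TGFB2 and INHBA, the receptors TGFBR1, TGFBR2, TGFBR3, ACVR1 and BMPR2, and the inhibitory SMAD protein SMAD7. They were chosen by name, after the study's comparison of KH-3 with DMSO was known, and every row listed under these symbols was taken. This gave 30 transcripts among the 43596 listed, and 10 of the 15113 gene symbols. The values that led to the choice stand in columns that were not read, and none of them is given here.

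Cells were treated for 24 h with DMSO, the solvent, or with 10 µM KH-3, a small molecule inhibitor of the RNA-binding protein HuR, with 2 libraries in each group. Total RNA was taken with Trizol and made into mRNA libraries. The table analysed holds 1 pooled value for each transcript, the mean normalized read count over libraries, which is the authors' mean. Which libraries enter that mean is not stated, and libraries from a lower KH-3 dose, which the methods mention and which were not used here, may be among them. Treated and control cells are therefore mixed in every value below, so that no value is the level of either group, and the response of these genes to KH-3 is not analysed here. The table has no value for a single library. The depth of each library and the spread between replicates are unknown, no value below has an SD, and no difference between genes was tested.

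TGF-β ligands are secreted as precursors, cut into a short mature form, and bound by pairs of receptor kinases. A type II receptor holds the ligand and activates a type I receptor, which phosphorylates receptor SMAD proteins; these join SMAD4 and act in the nucleus. TGF-β and activin signal mainly through SMAD2 and SMAD3, bone morphogenetic proteins (BMPs) through SMAD1, SMAD5 and SMAD9. GDF15 is a distant member of the ligand family, raised in many forms of cell stress, whose known receptor is GFRAL with RET and not a TGF-β receptor. In breast cancer the pathway restrains growth of early lesions and favours invasion later.

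The mean normalized read counts of the 43596 transcripts ran from 7.34 to 180749 with a median of 50.8, and summed to 12267196, of which the 10 genes held 0.0985%. Why a transcript is missing from the table is not stated, so that "not listed" below says only that no row has that symbol, and not that the gene was silent. Of the markers of the line, VIM, the mesenchymal filament vimentin, stood at percentile 99.6 of all genes by level per kb, CD44 at 80.8, SPARC at 65.5 and ZEB1 at 36.4. ESR1, PGR and CDH1, which encode the estrogen receptor, the progesterone receptor and E-cadherin, were not listed, and the epithelial gene EPCAM was at percentile 32.4.

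Levels are compared between genes only per length. The level of a gene is the sum over its listed transcripts of the mean normalized read count divided by the transcript length in kb, and its percentile is the percent of the 15113 genes with a lower level. GDF15 had the highest level per kb of the 10 genes, at 2028, followed by TGFBR2 at 850, TGFB2 at 506 and TGFB1 at 500.3. ACVR1 followed at 188 and BMPR2 at 145. TGFBR1 had a level of 90.6 per kb, INHBA 81.7, TGFBR3 70.0 and SMAD7 56.8, and these 4 were below the median of all genes, 108. This depends on the division by length: for counts not divided by length, TGFBR1 was at percentile 64.3, TGFBR3 at 60.4 and INHBA at 57.1, above the median, SMAD7 stayed below it at 37.4, and TGFBR2 at 96.9 lay above GDF15 at 92.5. It also depends on the genes set beside them: among genes with a protein-coding transcript, BMPR2 too was below the median. Its percentile was 47.8 there and 56.6 among all genes. Among all genes listed, the percentiles ran from 37.2 for SMAD7 to 97.0 for GDF15, with a median of 59.8. Of the 10 genes, 4 were at or above percentile 80. GDF15 had rank 448 from the top among all genes and TGFBR2 rank 1396. Without a spread between libraries, neighbours in this order such as TGFB2 and TGFB1 cannot be told apart.

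**Figure D1:**
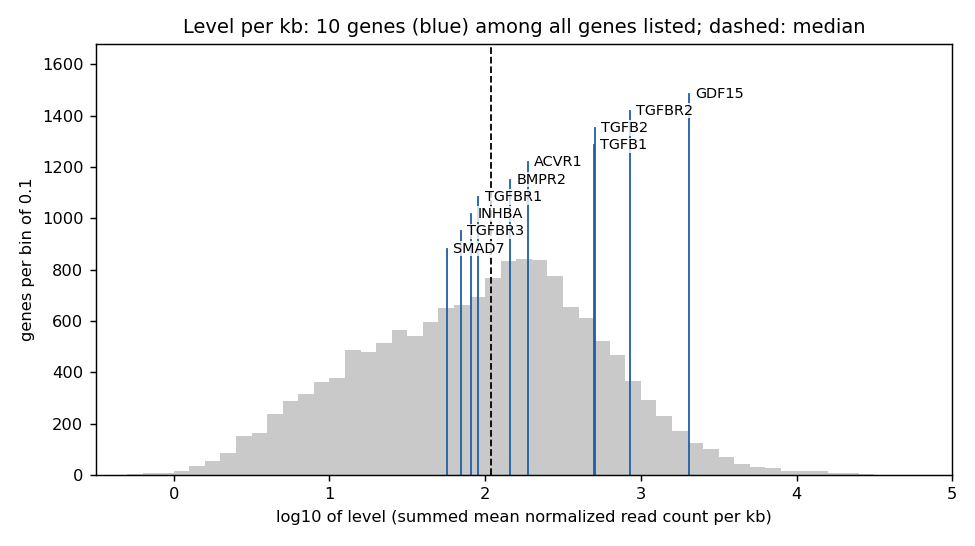
Distribution of the level per kb (log10 of the summed mean normalized read count per kb, x axis) over all 15113 genes, as genes in each bin of 0.1 (y axis). Blue lines mark the 10 genes and the dashed line the median of 108; GDF15 lies at 2028 and SMAD7 at 56.8.

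All positions are in the human genome build hg38, with GENCODE release 44. GDF15 spans bases 18374731 to 18389176 of chromosome 19 (plus strand). Of its 3 listed transcripts, ENST00000252809.3 had a mean normalized read count of 1734 and held 77.7% of the reads of the gene. ENST00000595973.2, also protein-coding, had 488, and a short processed transcript, ENST00000594925.1, had 10.3. In GENCODE release 44 both coding transcripts encode 308 residues and differ in their untranslated parts, with 32 bases of 5′UTR and 241 of 3′UTR in the first, and 551 and 0 in the second. The second is listed at 890 bases and has 1478 in release 44, so that its parts may not be those the reads were counted on. The reads of GDF15 were thus nearly all, 99.5%, on transcripts annotated as coding.

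TGFB1 and TGFB2 encode closely related ligands that act on the same receptors. TGFB1 lies on chromosome 19 from 41301587 to 41353922 on the minus strand, and TGFB2 on chromosome 1 from 218345336 to 218444619 on the plus strand. The main TGFB1 transcript, ENST00000221930.5, had a mean normalized read count of 964 and held 93.5% of the reads of the gene. The 3 others were 559 bases long or shorter, with counts of 30.2, 21.9 and 14.6. Short fragments weigh more per length, and the main transcript made up 69.6% of the level per kb of TGFB1. TGFB2 was divided more evenly. Its transcript ENST00000366930.8 had a count of 1470 and encodes 414 residues, while ENST00000366929.4, which has 1 more exon and encodes 442 residues, had 130. A processed transcript without a coding sequence, ENST00000479322.1, had 234, more than the longer coding form, and a second one had 11.5. With coding transcripts alone the level per kb was 387 for TGFB1 and 322 for TGFB2, so that the order of the pair turned.

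INHBA encodes the βA subunit that forms activin A, and lies on chromosome 7 from 41667168 to 41705834 on the minus strand. Its transcript ENST00000242208.4 had a mean normalized read count of 324, or 83.5% of the reads of the gene. ENST00000638023.1 also encodes 426 residues, with a 3′UTR of 60 bases in place of 4536, and had a count of 20.1. A processed transcript without a coding sequence in the listing, ENST00000464515.1, had 43.8, or 11.3% of the reads. By level per kb, TGFB1 was 6.12 times as high as INHBA, and GDF15 was 4.05 times as high as TGFB1.

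TGFBR2 had the highest level of the receptors. This type II receptor, on chromosome 3 from 30606601 to 30694142 on the plus strand, had a level per kb 9.38 times that of its type I partner TGFBR1 and 12.2 times that of TGFBR3. Its 2 transcripts had near-equal counts. ENST00000295754.9, which encodes 567 residues, had 2091, and ENST00000359013.4, which has 1 more exon and encodes 592 residues, had 1832. Both share most of their sequence, and the split depends on how the reads common to both were divided.

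TGFBR1, on chromosome 9 from 99104038 to 99154192 on the plus strand, showed no dominant transcript. ENST00000374990.6, with 8 exons and 426 residues, had a count of 247, ENST00000552516.5, with 9 exons and 507 residues, had 180, and ENST00000374994.8, with 9 exons and 503 residues, had 112. The form with the shortest protein held 45.8% of the reads of TGFBR1, the lowest share of a leading transcript among the 10 genes. TGFBR3, or betaglycan, is a co-receptor without kinase activity that presents TGF-β, TGF-β2 above all, to the type II receptor. It lies on chromosome 1 from 91680343 to 91906335 on the minus strand. Its coding transcript ENST00000212355.8 had a count of 419, and a transcript annotated for nonsense-mediated decay, in which an early stop leads to degradation, had 33.5.

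ACVR1, also known as ALK2, is a type I receptor of BMPs and lies on chromosome 2 from 157736251 to 157876330 on the minus strand. Its 4 transcripts, with counts of 305, 198, 25.5 and 8.86, all encode 509 residues in release 44. BMPR2, a type II receptor of BMPs, lies on the same chromosome from 202376327 to 202567751 on the plus strand. Its transcript ENST00000374580.8 encodes 1038 residues and had a count of 702. ENST00000638587.1 had 284, is listed as coding with 3443 bases and was not found in release 44. Per kb it was the higher of this pair, at 82.6 beside 61.2, and made up 57.1% of the level of BMPR2. The place of BMPR2 above the median of all genes, 108 per kb, rests on this transcript. ENST00000374574.2, which encodes a form of 530 residues, had 8.14. By level per kb, TGFBR2 was 5.88 times as high as BMPR2, and ACVR1 1.30 times as high as BMPR2. The level of BMPR2 in these ratios includes ENST00000638587.1.

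SMAD7 is a SMAD protein that binds activated type I receptors and blocks them, and is itself induced by TGF-β in a feedback loop. The gene lies on chromosome 18 from 48919853 to 48950965 on the minus strand. It was the gene of the 10 whose leading transcript was not coding. ENST00000545051.2, annotated as a retained intron, had a count of 77.5, and ENST00000262158.6, which encodes 426 residues, had 67.0. Of the reads of SMAD7, 46.4% were on the coding transcript, against 86.7% or more for each of the other 9 genes. With the coding transcript alone its level per kb fell from 56.8 to 21.7.

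**Figure D2:**
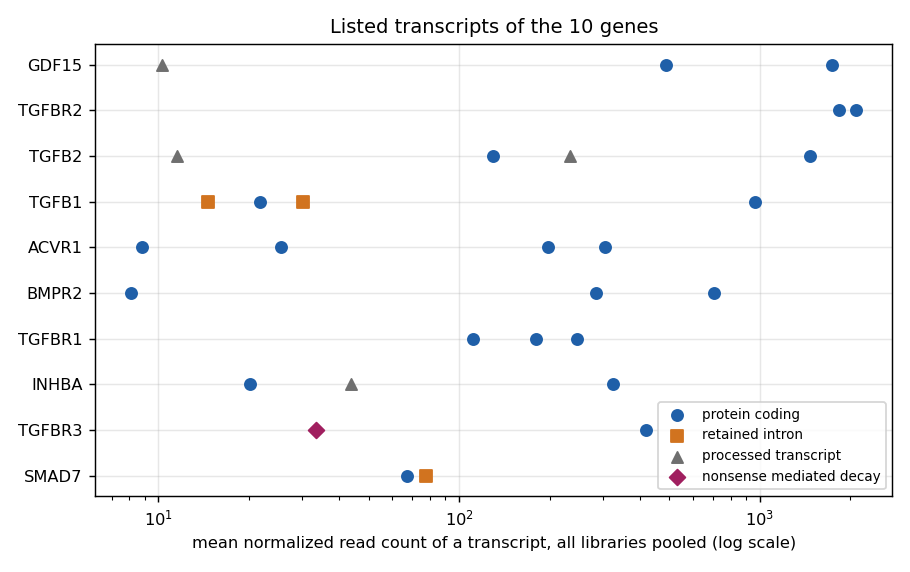
Mean normalized read count (x axis, log scale) of each of the 30 transcripts listed, by gene in order of level per kb; symbols give the transcript type. TGFBR2 has a pair of near-equal coding transcripts at 2091 and 1832, and in SMAD7 the retained intron (77.5) lies above the coding transcript (67.0).

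Taken over the 10 genes, 22 of the 30 transcripts were listed as protein-coding and held 96.2% of their reads, beside 85.9% for the whole table. These shares are of unlike sets, since the whole table also holds genes without a coding transcript and each of the 10 genes has one. The median number of transcripts was 3, beside 2 for all genes. The leading transcript held a median of 74.1% of the reads of a gene. For the 10289 genes with 2 or more transcripts this median was 65.3%.

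HuR binds AU-rich elements in the 3′UTR of mRNAs, and the pentamer AUUUA is the core of such elements. It was counted in the 3′UTR of the coding transcript with the highest mean normalized read count of each gene. The count was made on the mRNA strand, with overlapping matches allowed, and with the sequence of GENCODE release 44 on hg38. For BMPR2 this was ENST00000374580.8, with 61.2 per kb. ENST00000638587.1 of BMPR2 was higher per kb, at 82.6, but was not found in release 44 and could not be scanned. Genes were divided into 10 classes of equal size by 3′UTR length, so that each gene stands beside genes of like length. The heptamer UAUUUAU, which contains the pentamer, was counted in the same way. A match is a string of letters, and binding by HuR was not measured in these data.

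All 10 genes had at least 1 AUUUA, 87 in total, and 8 had at least 1 UAUUUAU, beside 73.1% and 35.3% of the 11422 genes with a 3′UTR in the reference. The median 3′UTR length of the 10 genes was 2900 bases, beside 1274 for all genes. The 3′UTR was longer than that of the median gene in 7 of the 10, and shorter in GDF15, TGFB1 and ACVR1. Of the 10 genes, 5 had more AUUUA than the median of genes of like length. The shares of the 10 genes with a match are therefore read beside the length of their 3′UTRs. In the length classes of the 10 genes, the share of all genes with AUUUA ran from 40.4% for the class of GDF15 to 99.6% for that of INHBA and BMPR2. The share with UAUUUAU ran from 10.9% to 76.8% between the same classes. GDF15, BMPR2 and TGFBR2 lay farthest from the medians of their length classes by the share of genes beyond them. GDF15 had 5 AUUUA and 3 UAUUUAU in 241 bases, a density of 20.7 per kb, while the median of its length class was 0. Of the 1143 genes in that class, 10 had as many AUUUA or more, GDF15 included, and 5 had as many UAUUUAU or more. BMPR2 had 34 AUUUA and 4 UAUUUAU in 7803 bases, where genes of 4361 to 30931 bases had a median of 14, and 65 of 1143 had as many AUUUA or more. That class is wide, with a median length of 5712 bases. TGFBR2 had 1 AUUUA and no UAUUUAU in 2543 bases, where the median was 6 and 115 of 1141 genes had 1 or none.

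Of the other 7 genes, INHBA had 13 AUUUA in 4536 bases, in the same class as BMPR2, and 4 UAUUUAU. TGFBR1 had 10 in 4344 bases, and TGFB2 and TGFBR3 had 7 each, where the median of their class was 8. ACVR1 had 5 in 1085 bases with a class median of 2, SMAD7 had 3 with a class median of 3, and TGFB1 had 2 with a class median of 1.

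The sites below are shown because they are AU-rich stretches behind the high pentamer count of GDF15, with sites from TGFB1, INHBA and BMPR2 beside them. INHBA and BMPR2 have 4 UAUUUAU matches each, and the one printed is the match with the most AUUUA in its window, where each of the others has 1. Each is 29 bases of the mRNA strand, written 5′ to 3′, and capitals mark UAUUUAU. In hg38 the GDF15 sites are chr19:18389054-18389082 and chr19:18389119-18389147 on the plus strand, the TGFB1 site is chr19:41330728-41330756 on the minus strand, the INHBA site is chr7:41686142-41686170 on the minus strand, and the BMPR2 site is chr2:202567023-202567051 on the plus strand. The first of the 3 GDF15 matches overlaps the window of the middle one and is not printed. The windows hold 2, 2, 1, 2 and 3 AUUUA in the order printed.
GDF15 middle site: uauaagucuguUAUUUAUuauuaauuuau
GDF15 last site: auggaacugugUAUUUAUuuaaaacucug
TGFB1: guaguuagaucUAUUUAUugagcaccuug
INHBA: aaccaauuucaUAUUUAUuuaagauugau
BMPR2: cuggccacauuUAUUUAUuuaagcaauuu

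**Figure D3:**
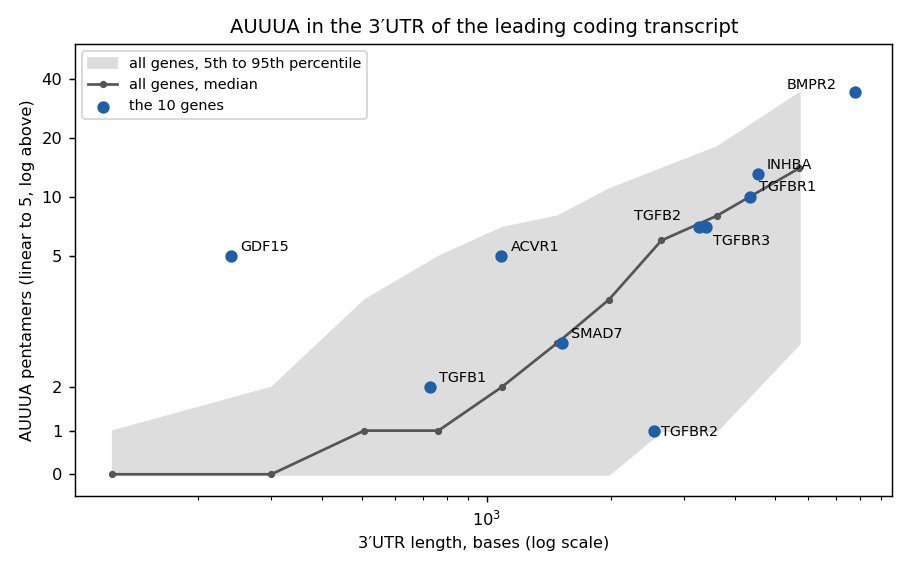
Number of AUUUA pentamers (y axis, linear to 5 and log above) against 3′UTR length in bases (x axis, log scale) for the 10 genes (blue) over the median and the 5th to 95th percentile of all genes in 10 length classes (grey). GDF15, with 5 in 241 bases, lies above the grey band, and TGFBR2, with 1 in 2543 bases, at its lower edge.

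The rest of the pathway was read from 6 lists written from general knowledge. Of 33 ligands of the family, 16 were listed, and 4 of them had a level per kb above the median of all genes: GDF15, TGFB2, TGFB1 and BMP4, a BMP ligand, at 299. TGFB3, the remaining TGF-β isoform, was listed at 6.48, with a single transcript. The 3 highest ligands were thus among the 10 genes. Of 16 receptors and co-receptors, 12 were listed, with TGFBR2 first, the BMP type I receptor BMPR1A next at 250, then ACVR1. GFRAL, the receptor of GDF15, was not listed.

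All 8 SMAD genes were listed. SMAD3, which carries TGF-β and activin signals, had the highest level per kb at 603, followed by SMAD5 at 322, which carries BMP signals, and SMAD2 at 241. SMAD6, the other inhibitory SMAD, had 140 per kb beside 56.8 for SMAD7, and only SMAD9 was below SMAD7. SMAD1, at 57.4, cannot be told apart from SMAD7 without a spread between libraries. The level of SMAD7 includes its retained intron. Its coding transcript alone had 21.7 per kb, beside 21.8 for all listed transcripts of SMAD9. Of 12 symbols for latency and activation of TGF-β, which count NRROS also under its older symbol, 9 were listed, led by THBS1 (566), ITGAV (433) and FURIN (347), which encode thrombospondin-1, an integrin subunit and a protease that cuts the precursors. Of 17 inhibitors, 14 were listed, led by the ubiquitin ligase SMURF2 at 971, the activin-binding follistatin gene FST at 908 and the SMAD phosphatase gene PPM1A at 372. Of 10 known target genes of the pathway, 9 were listed, and 5 of these 9 had a level per kb above the median of all genes. CTGF (4061), ID1 (1285) and ID3 (1173) were at or above percentile 93.8. Of those below the median, TAGLN was the lowest at 3.18 per kb. By list, the median percentile was 32.3 for ligands, 43.0 for receptors, 56.2 for SMAD proteins, 46.8 for latency and activation, 44.4 for inhibitors and 75.5 for target genes. These are levels and not changes with treatment.

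**Figure D4:**
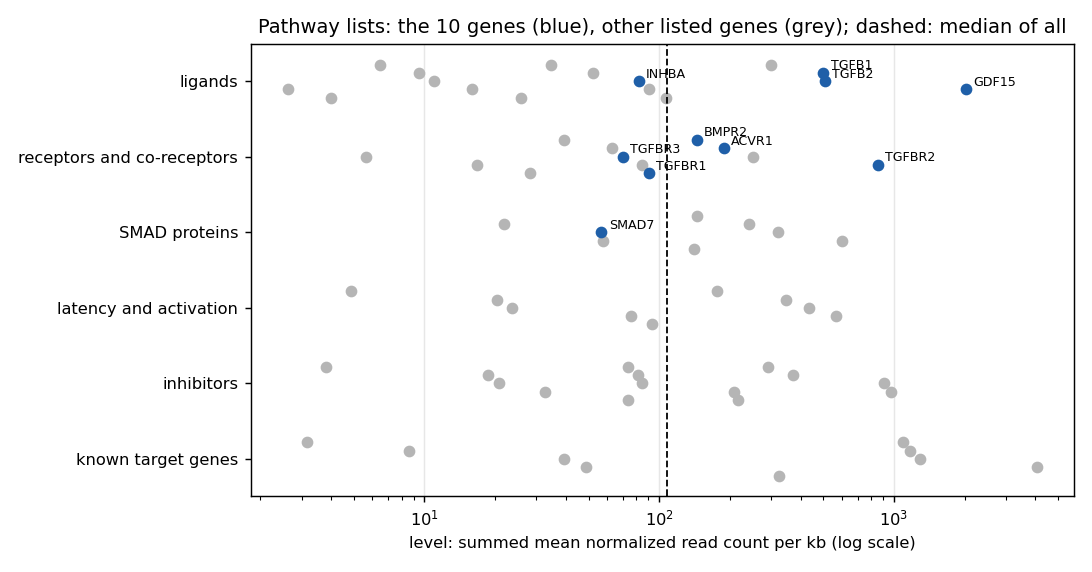
Level per kb (x axis, log scale) of each listed gene in the 6 pathway lists; vertical offsets within a list only separate points. The 10 genes are blue and the dashed line is the median of all genes, 108; GDF15 (2028) and TGFBR2 (850) lead the ligands and the receptors.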

How the data were processed

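Libraries of MDA-MB-231 cells (2 with DMSO, 2 with KH-3) were sequenced on an Illumina HiSeq system. According to the methods, the authors mapped reads with STAR to GENCODE release 24 transcripts (hg38), estimated reads per transcript with eXpress, and compared groups with DESeq2; versions are not given in the sources used here. The deposited signal is a mean normalized read count per transcript, averaged by the authors over libraries. The 3 other value columns hold their fold change, p-value and q-value of KH-3 against DMSO, and were not used. Depth per library is unknown.

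Here, levels per kb, percentiles and transcript shares were computed from that mean and the listed lengths. Of the 30 transcripts, 29 were found by ID without version in GENCODE release 44, 18 with equal length and 6 with another type, so UTR and protein lengths describe release 44. Splits between transcripts depend on how eXpress divided shared reads. No test was run. The genes and lists were chosen with earlier results of these data known. The text names the 10 genes with their transcripts, the 3 highest genes of each list and the cell line markers. BMP4, TGFB3, GFRAL, SMAD1, SMAD6, SMAD9 and TAGLN were added after the values were seen. Computations were tested on simulated data. Python 3.11.15, numpy 2.4.6, pandas 2.3.3, Biopython 1.88 and matplotlib 3.10.9 were used.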

Additional observations from a re-analysis of the deposited data

How the results depend on the processing

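The median level per kb of the 10 genes was 166 with all transcripts and with coding transcripts alone, 85.6 with the leading transcript only, 177 with 200 bases taken off each length and 164 with a count of at least 20. The leading transcript alone lowered 7 of the 10 levels by over 1.5 times, since it leaves out the reads of the other transcripts; coding transcripts alone did so for TGFB2 and SMAD7. GDF15 and TGFBR2 had the highest levels and SMAD7 the lowest under all 4 alternatives, while TGFB1 lay above TGFB2 in 3 of them. The median percentile was 51.4 among genes with a coding transcript, where BMPR2 turned to below the median gene. It was 71.5 for counts not divided by length, where TGFBR1, TGFBR3 and INHBA turned to above the median gene. The median share of the leading transcript was 60.1% of the level per kb and 85.0% over coding transcripts. UAUUUAU occurred in 8 genes. Where lengths had to be equal in both releases 2 of the 10 genes were left, and both had AUUUA. No paired analysis was possible because the table has no value per library, and leaving out a library could not be done for the same reason.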
